A study of Sus scrofa with 15 samples.

Results

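Antioxidant enzyme transcripts were measured in the testes of male piglets fed different infant diets. The enzymes were chosen by name as a list of 10 genes: the superoxide dismutases SOD1 and SOD2, catalase (CAT), the glutathione peroxidases GPX1, GPX3 and GPX4, the peroxiredoxins PRDX1, PRDX2 and PRDX3, and thioredoxin (TXN). Of these, 9 were found by symbol among the 30476 genes of the table, each with a single row, and TXN was not analysed here. There were 15 libraries, with 3 in each of 5 diets, labelled as separate samples. The sources used here do not say whether each came from a single piglet. All piglets suckled until postnatal day 2 and were then assigned to a diet, and testes were frozen at day 21. Sow piglets had sow milk and Milk piglets a cow's milk formula. Soy piglets had a soy formula, which contains isoflavones such as genistein. M + E2 piglets had the milk formula with 17β-estradiol added, with a serum target of 15 to 30 pmol/L. The study measured substantially more estradiol and estrone in serum on this diet than on the others. The level reached is not set against the target here. M + G piglets had the milk formula with genistein at 84 mg/L, a value that the sample labels give as a serum target and the study's methods as a concentration in the diet. The animals were Dutch Landrace Duroc crosses taken at random from many litters. Whole testis was sequenced, so that fewer cells of a type and less RNA per cell cannot be told apart from the reads. In sections of the testes the study found no significant difference between diets in Leydig cell numbers. It found more Sertoli and germ cells in M + E2 than in Milk. These cell counts were not linked to the libraries here. The p-values set a difference between diets against the spread between these samples, which the main fit estimated over all 5 diets together. They were adjusted over all tested genes.

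Superoxide, a by-product of mitochondrial respiration and of cytochrome P450 reactions, is converted to hydrogen peroxide by the superoxide dismutases. Hydrogen peroxide is then removed by catalase in peroxisomes, by glutathione peroxidases at the expense of glutathione, and by peroxiredoxins, which are reduced again by thioredoxins. In the testis these enzymes are known for protecting steroid-producing Leydig cells, whose P450 enzymes leak reactive oxygen, and germ cells, whose membranes are rich in polyunsaturated lipids.

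Read totals on genes ran from 6097552 to 9488579 (median 8198038), and each member had between 634 reads (GPX4 in M + E2 1) and 27878 reads (PRDX3 in Sow 2). Counting error at the lowest count was between 1.67 and 3.97% of a member's value, and all 9 members passed the expression filter. In Sow and in Soy, 1 library carries no number in the table and is called unnumbered here. Levels are CPM, a gene's reads scaled to a common library size, after TMM normalization, and they are compared between diets and not between genes, since transcript lengths were not used. The library Sow 2 was excluded by the study for its low correlation with other libraries. Here its Pearson's r of log2 CPM was 0.972 with Sow unnumbered and 0.968 with Sow 3. The lowest such value within a diet was 0.93, between Milk 2 and Milk 3. Sow 2 stood apart in other ways. Its summed CPM of 53 ribosomal protein genes was 111689, against 23659 to 68118 in the other 14 libraries, and it was the highest of all libraries for 5 of the 9 members. Comparisons therefore used 14 libraries with 2 of Sow, and results that changed with all 3 Sow libraries are given with both. Transcripts of the testis were present in every library, with all 5 Leydig cell markers and all 8 Sertoli cell markers above 0.

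The lowest mean of the 5 diets was that of M + E2 for 9 of 9 members, against 25.9% of the 15634 tested genes. Sow had the highest mean for 6 of 9 members, against 31.4% of all tested genes. GPX1 and SOD1 were highest in Milk, and GPX3 was highest in M + G. The order of the diets was the same for GPX4, PRDX1, PRDX2 and SOD2, falling from Sow through Milk, Soy and M + G to M + E2. The spread over the 15 libraries was widest for PRDX3, whose highest library was 8.35-fold its lowest, and for PRDX1 (5.95-fold). It was narrowest for SOD1 (2.58-fold) and CAT (2.22-fold).

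**Figure D1:**
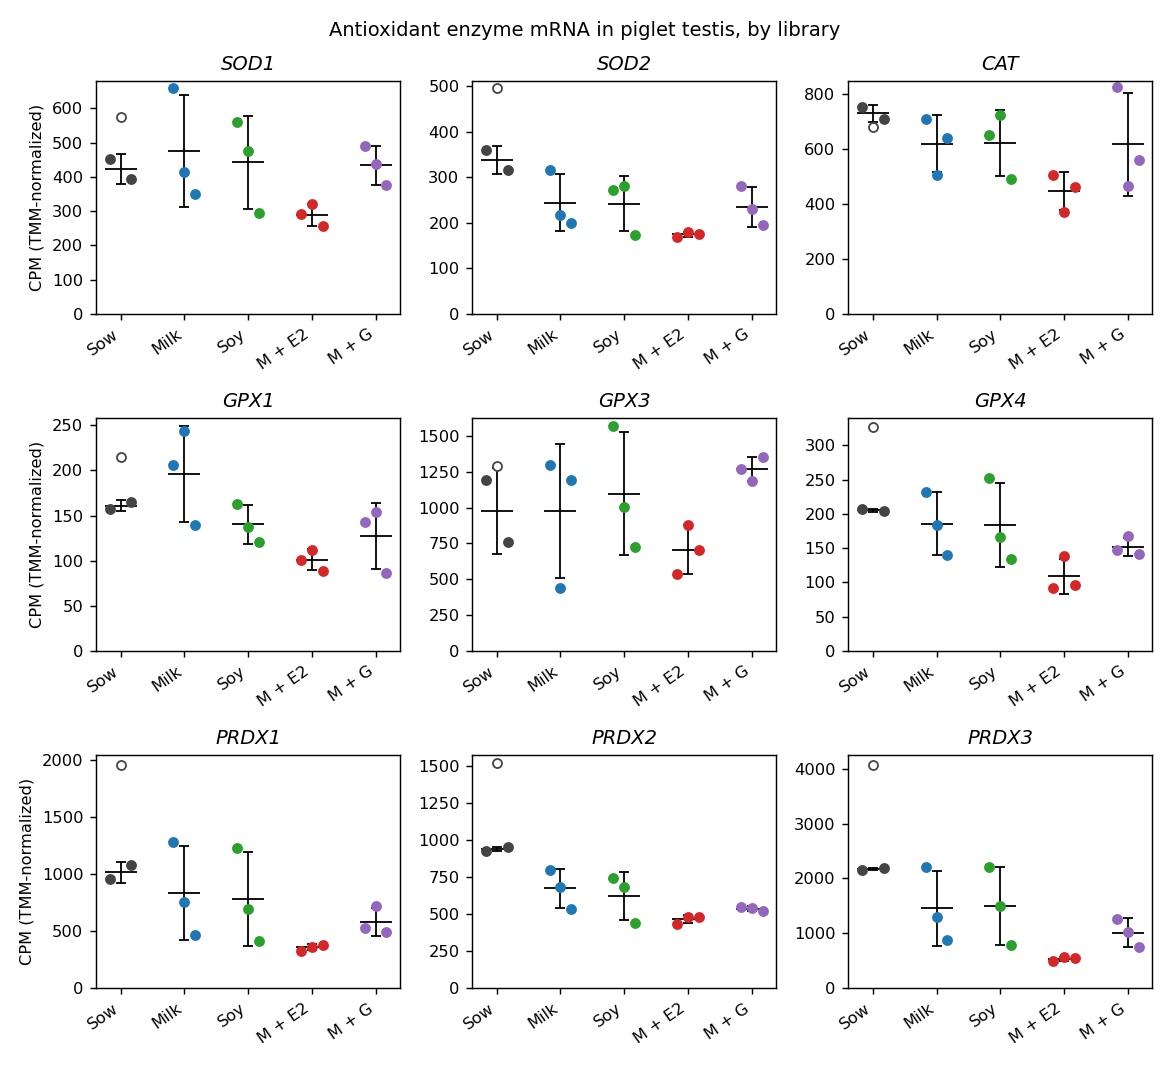
CPM of each member (vertical axis, TMM-normalized, starting at 0) in every library of the 5 diets (horizontal axis), with black lines for the mean and bars for ± SD without Sow 2, which is the open point. The M + E2 points of PRDX1 (330 to 381 CPM) and PRDX3 (487 to 561 CPM) lie below all others, and those of GPX3 overlap with Sow, Milk and Soy.

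PRDX3 is the peroxiredoxin of mitochondria, where it removes most hydrogen peroxide. Its gene (ENSSSCG00000010682, chr14:129079050-129090790 in the RefSeq annotation of Sscrofa11.1) had 2154 CPM in Sow unnumbered, 4064 CPM in Sow 2 and 2188 CPM in Sow 3. In M + E2 the level of PRDX3 was 487, 561 and 550 CPM, and in M + G it was 1268, 1019 and 754 CPM. In Milk it was 2211, 1297 and 875 CPM, and in Soy 2204, 1496 and 786 CPM. The 3 M + E2 libraries were thus the 3 lowest of all 15, within a narrow range, while Milk and Soy each spanned from the Sow level to that of M + G. The PRDX3 mean was 2171 ± 24.3 CPM in Sow (SD, n = 2, without Sow 2) and 533 ± 40.1 CPM in M + E2 (SD, n = 3). The level in Sow was 4.27-fold that in M + E2, a log2 fold change of −2.09 for M + E2 (SE 0.42, adjusted p = 0.0356, edgeR's quasi-likelihood test with Benjamini-Hochberg adjustment over all tested genes). This was the 53rd largest fall among the 15634 genes. Along the order Sow, Soy, Milk, M + G and M + E2, no pair of neighbouring diets passed the test for PRDX3 (adjusted p = 0.474 for Soy and Sow, 0.999 for Soy and Milk, 0.940 for M + G and Milk, and 0.636 for M + E2 and M + G, edgeR).

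PRDX1 is an abundant peroxiredoxin of the cytosol and nucleus. Its gene (ENSSSCG00000003914, chr6:165847390-165859918) had 954, 1962 and 1082 CPM in Sow unnumbered, Sow 2 and Sow 3. In M + E2 the level of PRDX1 was 330, 366 and 381 CPM. In M + G it was 525, 718 and 492 CPM. As with PRDX3, the M + E2 libraries were the lowest 3 of all and did not overlap with any other diet. Milk (1283, 758 and 464 CPM) and Soy (1232, 698 and 418 CPM) again covered most of the range, each with 1 library above the Sow libraries used in the comparisons. PRDX1 fell 2.97-fold from Sow to M + E2, with a log2 fold change of −1.57 (SE 0.43, adjusted p = 0.0450, edgeR).

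PRDX2 is a cytosolic peroxiredoxin and one of the most abundant proteins of red cells. Its gene (ENSSSCG00000013736, chr2:66207829-66211474) had 929, 1519 and 951 CPM in Sow unnumbered, Sow 2 and Sow 3. The level of PRDX2 was 433, 478 and 484 CPM in M + E2 and 550, 541 and 520 CPM in M + G. In Milk it was 800, 685 and 537 CPM, and in Soy it was 747, 686 and 437 CPM. All 12 formula-fed libraries lay below the 3 Sow libraries, and the M + E2 libraries overlapped only with Soy 3. PRDX2 fell 2.12-fold from Sow to M + E2, with a log2 fold change of −1.08 (SE 0.24, adjusted p = 0.0374, edgeR). The summed CPM of 6 red cell markers was 500 to 579 in Sow and 245 to 604 in M + E2. In Milk it was 1362, 1486 and 377, and in M + G 876, 1352 and 449. The lowest library of each for PRDX2 also had the lowest red cell sum, as in M + E2. In Soy the sum was 919, 509 and 936, and Soy 3, the lowest for PRDX2, had the highest sum. In Sow the lowest library for PRDX2 (Sow unnumbered) was not the lowest for this sum (Sow 3). The part of red cells in PRDX2 was not tested.

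SOD2 is the manganese superoxide dismutase of mitochondria. Its gene (ENSSSCG00000040317, chr1:7679352-7689564) had 360, 495 and 316 CPM in Sow unnumbered, Sow 2 and Sow 3, and 169, 180 and 175 CPM in M + E2. The level of SOD2 was 316, 217 and 199 CPM in Milk, 271, 282 and 172 CPM in Soy, and 281, 230 and 194 CPM in M + G. Apart from Soy 3, which lay within their range, the M + E2 libraries were below all others. Milk 1 came within 0.1 CPM of Sow 3. SOD2 fell 2.03-fold from Sow to M + E2, with a log2 fold change of −1.02 (SE 0.26, adjusted p = 0.0406, edgeR). It thus lay just past the minimum of 2-fold, and its fall was less than 2-fold in the fit of only these groups, in edgeR's exact test, with no filter and with at least 10 counts in every library. SOD1 (ENSSSCG00000021355, chr13:195326573-195335273), the copper and zinc enzyme of the cytosol, had 453, 576 and 393 CPM in Sow unnumbered, Sow 2 and Sow 3, and 292, 320 and 256 CPM in M + E2. The other diets ranged from 294 CPM in Soy 3 to 659 CPM in Milk 1 for SOD1. The M + E2 and Sow libraries did not overlap, but the SOD1 difference of −0.62 (log2, SE 0.30) did not pass (adjusted p = 0.167, edgeR).

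GPX4 reduces lipid hydroperoxides within membranes and later becomes a structural protein of the sperm midpiece. Its gene (ENSSSCG00000024052, chr2:77321568-77323931) had 207, 327 and 203 CPM in Sow unnumbered, Sow 2 and Sow 3, and 91.4, 138 and 96.7 CPM in M + E2. The level of GPX4 was 232, 184 and 141 CPM in Milk, 252, 166 and 134 CPM in Soy, and 147, 167 and 142 CPM in M + G. M + E2 1 and M + E2 3 were below every other library, whereas M + E2 2 lay above Soy 3. The fall of GPX4 from Sow to M + E2 passed the test but was just under 2-fold (1.98-fold, log2 −0.98, SE 0.28, adjusted p = 0.0478, edgeR). With all 3 Sow libraries the log2 fold change of GPX4 was −1.17 (adjusted p = 0.00869, same test).

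GPX1 is the general glutathione peroxidase of the cytosol and, like GPX3 and GPX4, a selenoprotein. Its gene (ENSSSCG00000033727, chr13:31916269-31917337) had 157, 214 and 165 CPM in Sow unnumbered, Sow 2 and Sow 3, and 101, 112 and 89.2 CPM in M + E2. The lowest library for GPX1 was M + G 3 (86.0 CPM) and the highest Milk 2 (244 CPM). GPX1 was lower in each M + E2 library than in each Sow, Milk and Soy library, but the difference from Sow did not pass (log2 −0.74, SE 0.27, adjusted p = 0.0800, edgeR). GPX3 (ENSSSCG00000036438, chr16:71980467-71989011) is the secreted enzyme of plasma and extracellular fluid. It had 1189, 1290 and 761 CPM in Sow unnumbered, Sow 2 and Sow 3, and 538, 877 and 706 CPM in M + E2. In M + G the level of GPX3 was 1271, 1182 and 1351 CPM, in Soy 1566, 1004 and 722 CPM, and in Milk 1293, 443 and 1195 CPM. GPX3 was the member whose lowest library was Milk 2, and the only one whose M + E2 and Sow libraries overlapped (log2 −0.54, SE 0.43, adjusted p = 0.390, edgeR). The 3 M + G libraries were the tightest group, and all lay above the 3 M + E2 libraries.

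CAT (ENSSSCG00000013302, chr2:26493664-26533881), the peroxisomal catalase, varied least between libraries. It had 754, 683 and 710 CPM in Sow unnumbered, Sow 2 and Sow 3, and was one of 4 members for which Sow 2 was not the highest library. In M + E2 its level was 507, 373 and 464 CPM, and in M + G it was 826, 466 and 562 CPM. The M + G libraries thus held both the highest CAT level of the study and one within the M + E2 range. CAT was lower in M + E2 than in Sow by 0.77 on the log2 scale, which did not pass (SE 0.27, adjusted p = 0.0752, edgeR).

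E2 added to milk formula was compared with sow feeding to ask how estrogen with formula differed from the natural diet. All comparisons with Sow share the same 2 Sow libraries, and those with Milk the same 3. Each of the 9 members was lower in M + E2 than in Sow, and 4 of them, PRDX1, PRDX2, PRDX3 and SOD2, were called, that is, had an adjusted p of 0.05 or less and a fall of at least 2-fold. Of all tested genes, 3.56% were called lower in this comparison and 49.5% were lower by any amount. With GPX4, 5 of 9 members passed on adjusted p alone, against 5.6% of all genes for falls. The median log2 fold change of the members was −0.98, against 0.01 for all genes. The groups did not overlap for 8 of 9 members, against 28.7% of all genes that were lower without overlap. All 4 calls were lost without any 1 of M + E2 1, M + E2 2, M + E2 3, M + G 1, M + G 3 or Soy 2, and 2 of 4, PRDX2 and PRDX3, were kept without M + G 2. Over all 14 fits with a library left out, the log2 fold change of PRDX3 lay between −2.63 and −2.05 (adjusted p from 0.00970 to 0.123, edgeR) and that of PRDX1 between −2.16 and −1.53. For PRDX2 it lay between −1.48 and −1.05 and for SOD2 between −1.29 and −1.02. The largest of these falls came with Sow 2 in place of Sow unnumbered (PRDX1, PRDX2 and PRDX3) or of Sow 3 (SOD2). With all 3 Sow libraries 5 members were called, GPX4 being the addition.

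**Figure D2:**
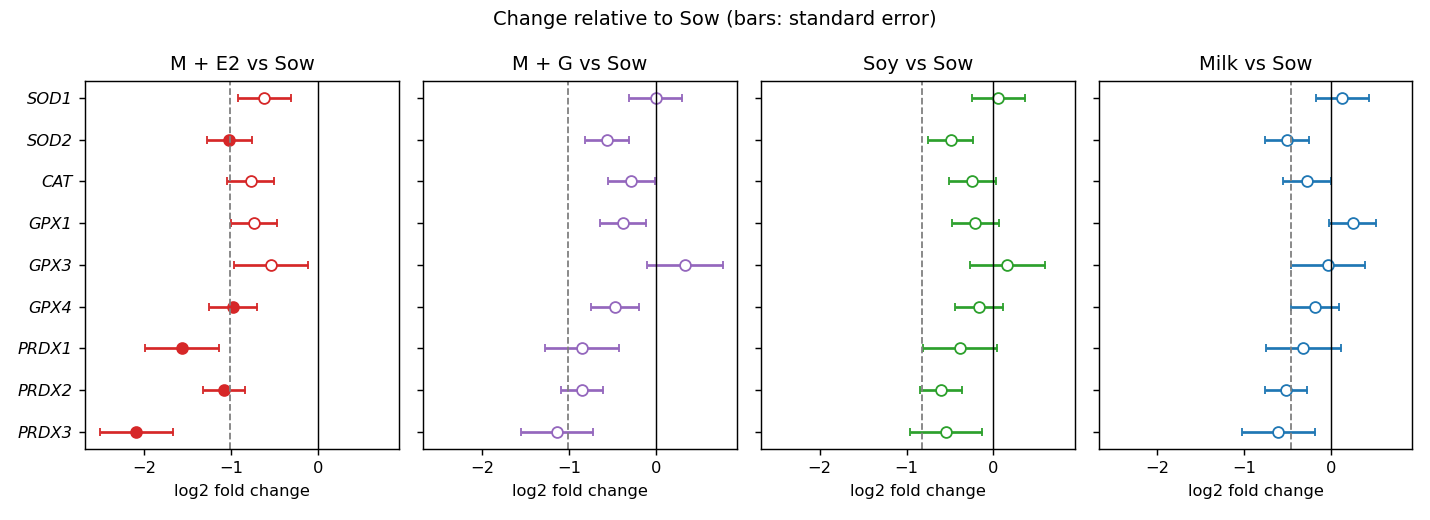
Log2 fold change of each member relative to Sow (horizontal axis, bars ± SE) in M + E2, M + G, Soy and Milk, with filled points for an adjusted p of 0.05 or less and a dashed line at the median of the ribosomal protein genes. All 9 points of M + E2 lie left of 0 and 5 are filled, whereas no point is filled in the other panels.

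M + E2 was set against Milk to separate the added estradiol from the formula itself. All 9 members were lower in M + E2, with a median log2 fold change of −0.74. None was called or passed by edgeR's quasi-likelihood test, and 0% of all genes were called or passed as lower. With edgeR's exact test at the same thresholds, the study reports differentially expressed genes between these diets. At an unadjusted p below 0.05, 7 of 9 members were lower, against 10.5% of all genes. The M + E2 and Milk libraries did not overlap for 7 of 9 members, against 7.79% of genes that were lower without overlap. The difference was −1.49 for PRDX3 (SE 0.39, adjusted p = 0.186, edgeR) and −1.25 for PRDX1 (adjusted p = 0.203, edgeR). GPX1 was lower by 0.98 on the log2 scale (adjusted p = 0.186, edgeR). PRDX3 was called in this comparison by edgeR's exact test and by DESeq2's Wald test. Without Milk 3, whose levels of PRDX1 and PRDX3 were the lowest of its group, GPX1, PRDX1 and PRDX3 were called.

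Genistein in milk formula was compared with Sow and with Milk in the same way. Relative to Sow, 7 of the 9 members were lower and 2 higher in M + G, with a median log2 fold change of −0.47, and 0 passed or were called by edgeR's quasi-likelihood test (0.0384% of all genes were called lower). At an unadjusted p below 0.05, 3 members were lower, against 13.7% of all genes. These were PRDX2 (log2 −0.84, adjusted p = 0.124, edgeR), PRDX3 (−1.13, adjusted p = 0.150) and SOD2 (−0.56, adjusted p = 0.208). The call of PRDX2 between M + G and Sow turned on Sow 2, whereas that of PRDX3 also turned on the test and the groups fitted. With all 3 Sow libraries, or with Sow 2 in place of either other Sow library, both were called, with a log2 fold change of −1.08 for PRDX2 (adjusted p = 0.0220, edgeR) and −1.47 for PRDX3 (adjusted p = 0.0277, edgeR) over all 3. PRDX3 alone was also called in the fit of only these groups and by edgeR's exact test. Relative to Milk, 8 of 9 members were lower in M + G by a median of 0.28 on the log2 scale, with 0 passing and 0 of 9 without overlap (0% of genes were called lower, and 2.14% were lower without overlap). In that comparison only GPX1 had an unadjusted p below 0.05 (log2 −0.62, adjusted p = 0.940, edgeR), as 1.22% of genes did in that direction. With same-numbered Milk and M + G libraries treated as pairs, which the labels do not state, the count of calls remained 0.

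Soy formula was set against Sow and against Milk. Relative to Sow, 7 of 9 members were lower, with a median log2 fold change of −0.24. None passed or was called by edgeR's quasi-likelihood test (0.0128% of all genes were called lower), and only PRDX2 had an unadjusted p below 0.05 (log2 −0.60, adjusted p = 0.322, edgeR), against 7.46% of genes that were lower at that level. Relative to Milk, 4 members were lower and 5 higher in Soy, with a median of 0.02. Each had an adjusted p of 0.999, and 0 had an unadjusted p below 0.05 by edgeR. Of all genes, 1.07% were lower and 1.36% higher at that level, and 0% were called lower. Milk itself differed from Sow by a median of −0.28, with 7 of 9 members lower, and 0 of 9 had an unadjusted p below 0.05 by edgeR (5.99% of genes were lower at that level, and 0.0128% were called lower). Within Soy, the unnumbered library was the highest for 7 of 9 members and Soy 3 the lowest for all 9. PRDX1 in those libraries was 1232 and 418 CPM, a wider gap than that between the Sow and M + G means.

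Soy was also set against M + E2, to ask whether a diet with isoflavones resembled estradiol. All 9 members were higher in Soy, with a median log2 fold change of 0.67, and 0 passed by edgeR's quasi-likelihood test (0.122% of all genes were called higher and 0.141% passed). At an unadjusted p below 0.05, 7 members were higher, against 8.37% of genes. The difference was 1.55 for PRDX3 (adjusted p = 0.149, edgeR), 1.18 for PRDX1 (0.231) and 0.82 for GPX4 (0.202). The groups did not overlap for 3 of 9 members, against 7.79% of genes that were higher without overlap. PRDX3 was called here by edgeR's exact test and by DESeq2's Wald test. M + E2 and M + G, compared because they were neighbours in the order of levels, differed in the same direction for all 9 members, with a median of −0.51 in M + E2. None passed (0% of genes were called lower by edgeR's quasi-likelihood test), 7 of 9 did not overlap, against 9.16% of genes lower without overlap, and 3 had an unadjusted p below 0.05, against 4.02% of genes that were lower at that level. These were PRDX3 (log2 −0.96, adjusted p = 0.636, edgeR), GPX3 (−0.87, adjusted p = 0.693) and SOD1 (−0.62, adjusted p = 0.693). Soy and M + G differed by a median of 0.17 over the members, with 0 of 9 at an unadjusted p below 0.05 by edgeR (1.48% of genes were higher at that level, and 0% were called higher). Over all 5 diets together, 0 of 9 members passed edgeR's F test (0.064% of all genes passed), with adjusted p-values from 0.194 for PRDX3 to 0.509 for GPX3. At an unadjusted p below 0.05 it was 6 of 9 members, against 18.1% of genes. PRDX2 and PRDX3 passed it with all 3 Sow libraries, and GPX1, PRDX2 and PRDX3 without Milk 3.

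Ratios of reads within a library do not depend on normalization, and show where 2 members differed unequally between diets. The ratios were chosen after their values were seen, so they are given without a test. The reads of mitochondrial PRDX3 per read of cytosolic PRDX2 were 1.12, 1.17 and 1.14 in M + E2, and 1.45 to 2.95 in the other 12 libraries, with no overlap. In Sow the ratio was 2.32, 2.68 and 2.30. Per read of PRDX1, the other peroxiredoxin of the cytosol, there were 1.44 to 1.54 reads of PRDX3 in M + E2 and 1.42 to 2.42 in M + G, which overlapped. For the pair of superoxide dismutases the Sow libraries stood apart instead. There were 0.794, 0.860 and 0.803 reads of mitochondrial SOD2 per read of cytosolic SOD1 in Sow, and 0.479 to 0.686 in all 12 formula-fed libraries. GPX3, which did not move with the peroxiredoxins, had 0.318 to 0.552 reads per read of PRDX3 in Sow. In M + E2 this ratio was 1.10 to 1.56 and in M + G 1.00 to 1.79, with Soy between at 0.671 to 0.918. Milk covered 0.341 to 1.37 and overlapped with every other diet.

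**Figure D3:**
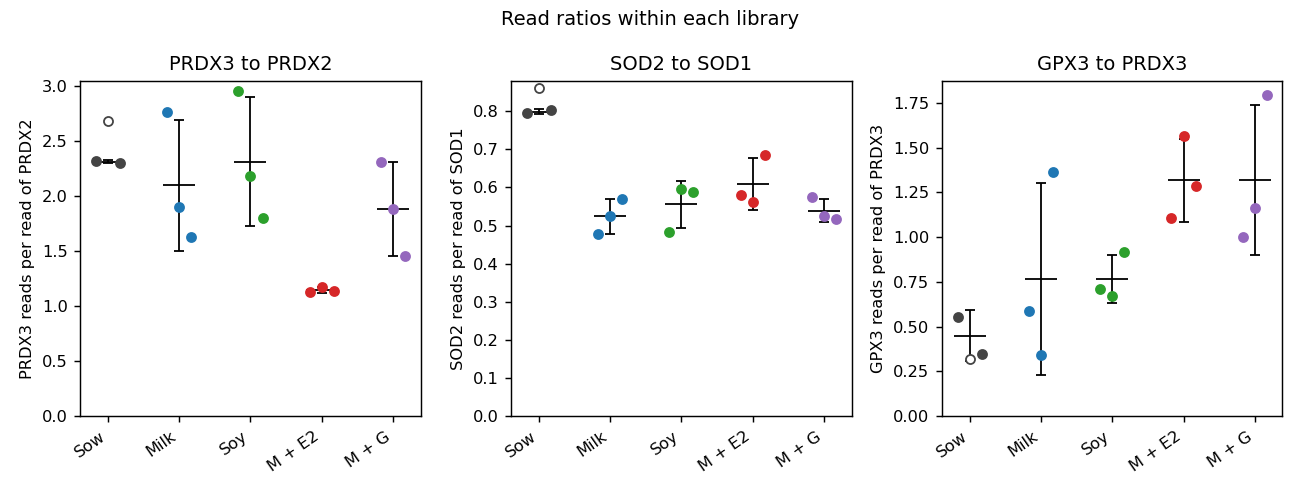
Reads of one member per read of another (vertical axes, starting at 0) in every library by diet, with lines for the mean and bars for ± SD without Sow 2 (open point). The 3 M + E2 points are the lowest for PRDX3 to PRDX2 (1.12 to 1.17), and the 3 Sow points are the highest for SOD2 to SOD1 (0.794 to 0.860).

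Across the 15 libraries the members fell into a tight group and some that moved apart. The correlations that follow are Pearson's r of log2 CPM, given as a description, since libraries of the same diet are not independent points and Sow 2 is among them. Among GPX4, PRDX1, PRDX2, PRDX3 and SOD2, the 5 members that passed between M + E2 and Sow, all 10 pairs had r from 0.866 to 0.969. With the diet means removed these pairs still had r from 0.73 to 0.935, so these members also varied together between libraries on the same diet. GPX3 had r from 0.071 to 0.623 with the other members and CAT from 0.42 to 0.738. SOD1 had r from 0.709 to 0.859 with the members other than CAT and GPX3. With the 5 members that passed, GPX1 had r from 0.682 (SOD2) to 0.801 (GPX4). With the diet means removed SOD1 had r of 0.947 with PRDX3, 0.934 with SOD2, 0.868 with PRDX1, 0.858 with PRDX2 and 0.842 with GPX4, as high as among those 5 members. With the mean log2 CPM of the ribosomal protein genes, r was 0.89 for PRDX2, 0.874 for PRDX1, 0.814 for GPX4, 0.809 for PRDX3 and 0.786 for SOD2. It was 0.715 for GPX1, 0.601 for SOD1, 0.311 for CAT and 0.175 for GPX3.

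**Figure D4:**
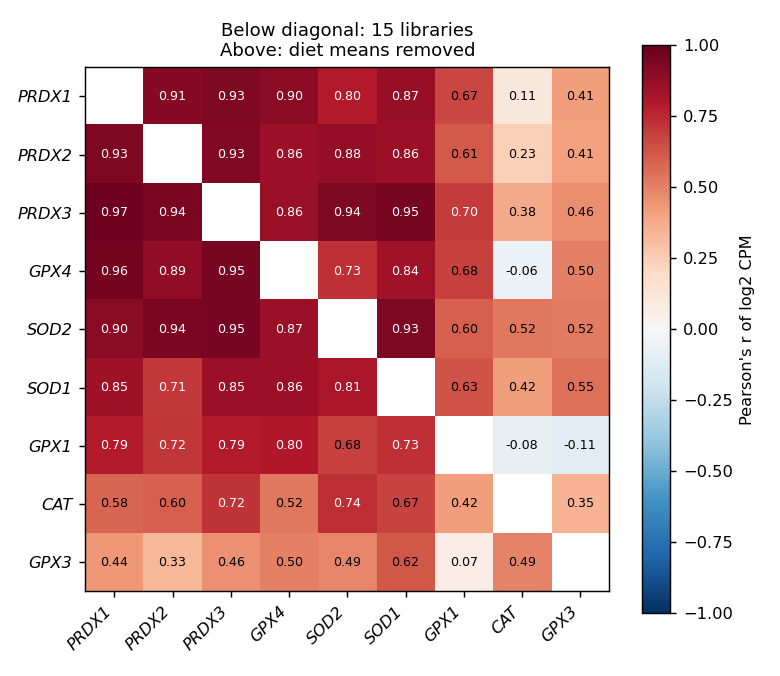
Pearson's r of log2 CPM between members (color scale from −1 to 1, value in each cell), over 15 libraries below the diagonal and with the mean of each diet removed above it. The block of PRDX1, PRDX2, PRDX3, GPX4 and SOD2 is dark on both sides (0.866 to 0.969 below), whereas the row of GPX3 is pale.

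The genes with a symbol whose log2 CPM was most like that of each member over the 15 libraries were then looked up. For PRDX3 these were GHITM (r = 0.991), which encodes a protein of the inner mitochondrial membrane, and MFN1 (0.988), a GTPase of mitochondrial fusion. For SOD2 they were DLD (0.982), the dihydrolipoamide dehydrogenase of mitochondrial dehydrogenase complexes, and LIPA (0.981), the lysosomal acid lipase. For SOD1 they were MRPL54 (0.97), a protein of the mitochondrial ribosome, and WDR92 (0.955). For PRDX1 they were ALG5 (0.992), an enzyme of N-glycosylation, and BTBD1 (0.986), and for PRDX2 they were CCDC28A (0.981) and MARCHF5 (0.98), a mitochondrial ubiquitin ligase. GPX4 was most like the proteasome subunit gene PSMD8 (0.983) and RNF181 (0.978), GPX1 most like TLR6 (0.948) and MAPK14 (0.922), and CAT most like ARL6IP1 (0.934) and FH, fumarate hydratase (0.912). GPX3 had the lowest such values, with DNAJA3 (0.873) and RDH12 (0.858). Without Sow 2 both names stayed the same for GPX1, GPX4, PRDX1, SOD1 and SOD2, and neither did for PRDX2.

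Genes that support these enzymes were followed in lists of 63 genes, of which 53 were tested. Between M + E2 and Sow, 9 of 53 passed, all of them lower, against 5.6% of all genes, and 5 of these were called, against 3.56%. The counts by list below stand beside the same shares. Among other peroxide-removing and superoxide-removing enzymes 2 of 7 passed, while 4 of the 7 were lower and 3 higher. SOD3 was higher, with 143, 108 and 138 CPM in M + E2 and 44.2 to 81.8 CPM in Sow (log2 0.80, adjusted p = 0.0963, edgeR). Relative to Milk, SOD3 was higher in M + E2 by 0.82 (adjusted p = 0.207, edgeR). The 2 that passed were PRDX6 and PRDX5. PRDX6, a peroxiredoxin that acts on phospholipid peroxides, had 294, 428 and 347 CPM in Sow unnumbered, Sow 2 and Sow 3 and 155, 155 and 150 CPM in M + E2 (log2 −1.13, adjusted p = 0.0396, edgeR), and PRDX5 differed by −0.96 (adjusted p = 0.0406, edgeR). In the thioredoxin and glutathione recycling list 3 of 11 passed, namely TXNIP, the glutathione reductase GSR (log2 −0.96, adjusted p = 0.0391, edgeR) and the sestrin SESN1 (log2 −0.89, adjusted p = 0.0471, edgeR). In glutathione synthesis and NADPH supply 1 of 10 passed, the cytosolic isocitrate dehydrogenase IDH1 (log2 −1.18, adjusted p = 0.0374, edgeR), with 345 to 378 CPM in M + E2 against 765 to 1029 CPM in Sow. In selenoprotein synthesis 1 of 7 passed, PSTK, the kinase that readies the selenocysteine tRNA (log2 −1.01, adjusted p = 0.0465, edgeR). In the peroxisome list 2 of 8 passed, PEX3 (log2 −1.35, adjusted p = 0.0450, edgeR), which inserts peroxisomal membrane proteins, and the transporter ABCD3 (log2 −0.63, adjusted p = 0.0374, edgeR). None of 7 genes of the NRF2 pathway, which regulates antioxidant genes, and none of 3 of copper supply passed. These 9 passes were lost without any 1 of M + E2 1, M + E2 2, M + E2 3 or Soy 2, and all but that of TXNIP without M + G 1 or M + G 3, with adjusted p-values up to 0.142 in edgeR, and all 9 were kept with all 3 Sow libraries. NFE2L2, which encodes NRF2, had 142 to 167 CPM in M + E2 and 196 to 209 CPM in Sow.

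TXNIP, which binds and inhibits thioredoxin, separated Sow from the formula diets. It had 862, 535 and 784 CPM in Sow unnumbered, Sow 2 and Sow 3, and between 262 and 392 CPM in all 12 formula-fed libraries. The Sow libraries were all above the others, and Sow 2 was here the lowest of them. The Sow libraries were also above all others for SESN1 (137 to 216 CPM, against 65.7 to 128 CPM) and ABCD3 (58.0 to 81.4 CPM, against 37.3 to 51.5 CPM). The same held for NFE2L2 (196 to 209 CPM, against 136 to 189 CPM). It held too for BACH1, a repressor of NRF2 targets (36.9 to 40.8 CPM, against 27.5 to 36.1 CPM). They were above all others for SLC7A11, PSTK and TRNAU1AP as well, and below all others for MAFK, EEFSEC and PEX14. The share of all genes with the Sow libraries apart in this way was not counted. Sow had the highest mean, with or without overlap, for 31.4% of all tested genes. SESN1 differed from Sow by −0.90 in M + G (adjusted p = 0.124, edgeR), −0.89 in Soy (0.320) and −0.59 in Milk (0.395). TXNIP was called in M + E2 (log2 −1.32, adjusted p = 0.0305, edgeR) and in M + G (log2 −1.39, adjusted p = 0.0497, same test), where it was the only 1 of the 53 to pass. With a library left out, the adjusted p of the M + G difference ran from 0.0206 to 0.209 (edgeR), and 6 of 14 such fits passed. It differed from Sow by −1.30 in Milk (adjusted p = 0.137, edgeR) and −1.23 in Soy (adjusted p = 0.286, edgeR), and by −0.01 between M + E2 and Milk. In the comparisons other than those of M + E2 and M + G with Sow, 0 of 53 supporting genes passed by edgeR's quasi-likelihood test.

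Other transcripts differed between the same diets. Ribosomal protein genes were lower than in Sow for 52 of 52 in M + E2 (49.5% of all genes were lower), with a median log2 fold change of −1.01, beside −0.98 for the antioxidant members. Of these, 4 of 52 passed, against 5.6% of all genes. In M + G their median was also −1.01 (52 of 52 lower), where the members had −0.47. In Soy it was −0.82 (52 of 52 lower), where the members had −0.24, and in Milk −0.46 (51 of 52 lower), where the members had −0.28. With the ribosomal mean as a covariate 0 of 9 members were called between M + E2 and Sow by edgeR's quasi-likelihood test, and PRDX3 differed by −1.28 (adjusted p = 0.215). Under this covariate PRDX1 differed by −0.59 and GPX4 by −0.43 (adjusted p = 0.418 and 0.456), and PRDX2 and SOD2 by −0.69 and −0.70 (0.210 and 0.317). Between Soy and M + E2 the covariate added a call instead. PRDX3 was then called (log2 1.34, adjusted p = 0.0231, edgeR), and PRDX1 (0.92, adjusted p = 0.0311) and GPX4 (0.69, adjusted p = 0.0343) passed. The summed CPM of 5 Leydig cell markers was 13150 to 14070 in M + E2, 19350 to 20050 in Sow and 16580 to 20000 in M + G. In Milk it was 10460 to 22320, with Milk 2 lowest, and in Soy 18130 to 24880. Of these 5 markers 4 were lower and 1 higher in M + E2 than in Sow, and 1 passed. This was STAR, which carries cholesterol into mitochondria for steroid synthesis (log2 −1.53, adjusted p = 0.0449, edgeR). STAR passed in 7 of 14 fits with a library left out. NR5A1 was higher in M + E2 (285 to 353 CPM) than in Sow (202 to 266 CPM), and the levels of CYP17A1 overlapped (5978 to 6894 and 6019 to 7537 CPM). The summed CPM of 8 Sertoli cell markers was 3328 to 3431 in M + E2 and 1843 to 2320 in Sow, with 0 of 8 passing. That of 6 germ cell markers was 233 to 295 in M + E2 and 170 to 194 in Sow, with 0 of 6 passing. Of these sums KIT alone made up 187 to 239 and 108 to 137 CPM. Among the 6 germ cell markers 3 were lower and 3 higher in M + E2, with a median log2 fold change of −0.15. The summed CPM of 5 endothelial markers was 558 to 728 in M + E2 and 239 to 376 in Sow, also with 0 of 5 passing. That of 5 epithelial markers was 54.2 to 88.2 in M + E2 and 164 to 203 in Sow, of which KRT8 made up 50.6 to 85.7 and 162 to 199 CPM, and 0 of 3 tested passed. Single genes of other marker lists that passed were SLC4A1 of red cells (log2 3.51, adjusted p = 0.0469, edgeR) and a row of GZMA of T cells (log2 −4.28, adjusted p = 0.0440, edgeR), with at most 5.10 and 2.15 CPM in any library. The summed macrophage and T cell markers overlapped between M + E2 and Sow. So did that of 5 peritubular and smooth muscle markers, with 0 of 5 passing, but it differed widely within diets. This sum was 4007 in Soy 3, 3238 in Milk 2 and 2376 in M + G 2, and 284 to 988 in the other libraries. Soy 3 and Milk 2 also had the highest endothelial sums (1121 and 1023). The part of these transcripts in the member differences was not tested beyond the ribosomal covariate.

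**Figure D5:**
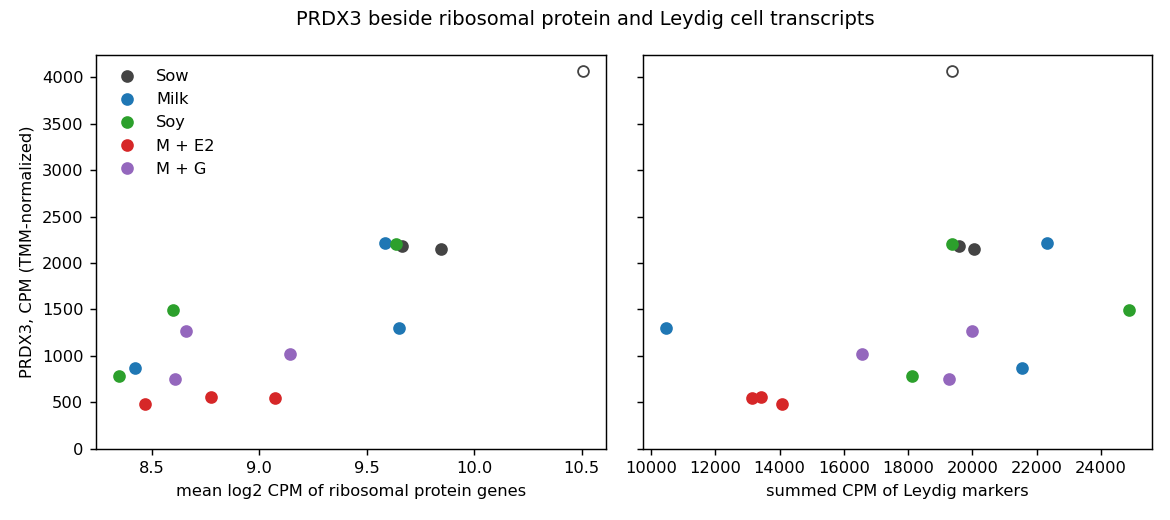
PRDX3 (vertical axis, CPM, starting at 0) in each of the 15 libraries against the mean log2 CPM of ribosomal protein genes (left) and against the summed CPM of 5 Leydig cell markers (right), colored by diet with Sow 2 open. The M + E2 points (487 to 561 CPM) lie below libraries of other diets at a similar ribosomal mean, and Milk 2 (1297 CPM) lies at the lowest Leydig marker sum.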

How the data were processed

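Per the study's methods, trimmed single-end reads were mapped in CLC Genomics Workbench, first to a curated pig gene library and the rest to the Ensembl genome. The table the authors deposited holds whole-number counts per gene and library, and whether it holds the reads of both mappings is not given in the sources used here. How reads with several matches and read strand were treated is not given in the sources used here. Counts were normalized by TMM, filtered by edgeR's filterByExpr (minimum count 10) and tested with edgeR 4.0.16 under R 4.3.3 (quasi-likelihood F test, a single fit of 5 diets without Sow 2, 15634 genes, Benjamini-Hochberg over all of them). The authors used edgeR's exact test. Genes were called at an adjusted p of 0.05 or less and at least 2-fold, as in the study. Log2 CPM used a prior count of 1. The comparisons M + E2 with M + G and Soy with M + G were added after the data were seen. Alternatives included all 3 Sow libraries, each library left out, DESeq2 1.42.0, other filters and a replicate block. The scripts were tested on simulated data. Same-numbered Milk and M + G libraries deviated together from their group means (r = 0.233, 0.51 and 0.425), and were treated as pairs in an alternative. The labels do not pair them, and libraries of unlike number were not compared in this way. These values therefore cannot show that the libraries are paired. Replicates differed beyond sampling noise. The genes named are the list's members, the 2 genes most like each, and the supporting genes called. Those that passed below 2-fold, and names or values of some others (such as NFE2L2, BACH1, SOD3 and STAR), were added after their values were seen. The members and lists were chosen with earlier results of these data known. Positions are from RefSeq (Sscrofa11.1), matched by symbol.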

Additional observations from a re-analysis of the deposited data

How the results depend on the processing

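Of 35 member differences, those of M + E2 with Sow, Milk and Soy and those with an unadjusted p below 0.05, none turned direction under any alternative tried. Of the 55 others, 32 turned under at least 1 alternative, the largest of these being 0.85 on the log2 scale. The 35 were taken partly by their p in these same data, and most alternatives shared most libraries. The contrast with the 55 therefore follows in part from that choice and is not a test. The count of members called between M + E2 and Sow was 4, between 0 and 5 with a library left out, and 0 with the ribosomal covariate. It was 3 to 6 under the other alternatives, with 6 under the replicate block that used Sow 2 and Sow 3. For M + G and Sow the count was 0, and 2 with all 3 Sow libraries, 1 in the fit of only these groups, 1 by edgeR's exact test, 3 under that replicate block and 0 to 2 with a library left out. For Soy and Sow it was 0, and 3 under the replicate block with Sow 2 and Sow 3 (PRDX1, PRDX2 and PRDX3). For M + E2 and Milk it was 0, and 1 by edgeR's exact test, 1 by DESeq2's Wald test and 0 to 3 with a library left out. For Soy and M + E2 it was 0, and 1 by each of those tests and 1 with the ribosomal covariate. The F test over the diets passed 0 members, 2 with all 3 Sow libraries and 0 to 3 with a library left out. The replicate block without Sow changed no call. The labels pair no libraries, so calls under the block with Sow rest on numbers that are not known to pair them. The cause of these changes was not tested beyond what each alternative leaves out. Sow had 2 libraries in the comparisons, and counting error was at most 3.97% at a member's lowest count.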
